A study of Mus musculus with 2 samples.

Results

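Binding sites of the forkhead transcription factor Foxp4 were examined at 9 genes that make, move or break down retinoids in differentiating mouse fat progenitors. The genes were Stra6, Rdh10, Dhrs3, Aldh1a1, Aldh1a2, Aldh1a3, Cyp26b1, Crabp1 and Crabp2. A Foxp4 peak was taken for a gene when its nearest start site, as the authors' annotation gives it, was that of the gene, or when its midpoint lay within 100 kb of the gene body. These rules gave 18 peaks of the 3317 in the list, 9 by nearest start site and 9 others by the window alone. The genes and rules were selected on the positions and nearest genes of peaks of the same library, so the counts below describe that choice and were not tested.

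The series held 2 samples, 1 chromatin immunoprecipitation (ChIP) library made with a Foxp4 antibody and 1 library of input DNA. Both came from stromal vascular fraction (SVF) cells of inguinal white fat (iWAT) from the C57BL/6 strain. This fraction holds fat progenitors with fibroblasts, vessel and immune cells, but no mature adipocytes. Both samples carried the same treatment. The cells grew for 3 days with 20% serum, and an induction of 48 h then used 10% serum, insulin at 5 µg/ml, isobutylmethylxanthine at 0.5 mM, dexamethasone at 1 µM, T3 at 50 nM and troglitazone at 5 µM. No genotype difference and no uninduced culture entered the data, and the age of the mice and any pooling are not given in the sources used here. The peaks analysed came from the ChIP library, and the input library was not analysed here. With 1 ChIP library there is no replicate error, and read depth is unknown. A peak list carries no expression values, so the labelled cell type could not be set against marker genes, and which cells of the mixture gave a peak is unknown. The authors' score of each peak is a whole number, which ran from 13 to 2569 with a median of 65 and quartiles of 41 and 104. The sources used here do not state its scale, and it serves below only to rank peaks within this list.

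Cells take up vitamin A as retinol, oxidise it reversibly to retinal, and oxidise retinal irreversibly to retinoic acid, the ligand of the nuclear retinoic acid receptors. Cyp26 enzymes remove retinoic acid, and binding proteins carry the intermediates between these steps. In mouse white fat, retinal and retinoic acid are known to influence adipocyte differentiation and thermogenic gene expression, and Aldh1a1 is among the enzymes that convert the one to the other there.

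Dhrs3, which reduces retinal back to retinol and so opposes Rdh10, was the 1 gene of the 9 with a Foxp4 peak at its start site. The peak lay on chromosome 4 from 144892825 to 144893566 (mm10) and covered all 3 curated start sites that the RefSeq promoter table gives for the gene, at 144892827, 144893077 and 144893137. RefSeq promoter sequence (GRCm38.p6, 250 bases before to 50 after a start site) covered 362 of its 742 bases. The window around the third start site is shown because, of the Dhrs3 windows wholly inside the peak, it is the closest to the peak midpoint. The windows of Rxrb and Prcc are set beside it because they also lie wholly inside a peak, 1 at a retinoid receptor gene and 1 that was the highest-scoring peak within 100 kb of any of the 9 genes. Capitals mark the forkhead words TGTTTAC and TGTTTGC and the word TTTGTTT, each on either strand. The Dhrs3 window is chr4:144892887-144893186 on the plus strand, the Rxrb window chr17:34032100-34032399 on the plus strand and the Prcc window chr3:87885513-87885812 on the minus strand.
Dhrs3: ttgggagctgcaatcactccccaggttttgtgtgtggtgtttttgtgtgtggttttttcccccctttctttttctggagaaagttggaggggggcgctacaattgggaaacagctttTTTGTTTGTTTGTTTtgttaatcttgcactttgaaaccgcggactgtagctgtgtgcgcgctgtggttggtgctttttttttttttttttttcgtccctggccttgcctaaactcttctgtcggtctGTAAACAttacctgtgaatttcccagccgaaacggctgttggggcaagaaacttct
Rxrb: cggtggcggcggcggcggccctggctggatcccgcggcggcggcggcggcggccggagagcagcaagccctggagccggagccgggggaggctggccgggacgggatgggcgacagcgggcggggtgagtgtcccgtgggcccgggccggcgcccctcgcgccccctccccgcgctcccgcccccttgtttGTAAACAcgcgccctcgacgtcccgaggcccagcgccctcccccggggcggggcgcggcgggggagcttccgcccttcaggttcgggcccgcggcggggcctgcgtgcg
Prcc: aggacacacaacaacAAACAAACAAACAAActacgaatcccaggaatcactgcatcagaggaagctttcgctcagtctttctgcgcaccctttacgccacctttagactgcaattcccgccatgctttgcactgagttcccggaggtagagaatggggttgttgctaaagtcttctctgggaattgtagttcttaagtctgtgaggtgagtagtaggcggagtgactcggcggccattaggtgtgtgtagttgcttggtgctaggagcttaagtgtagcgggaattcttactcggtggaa

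The Dhrs3 window held TGTTTAC once, as GTAAACA on the strand of the gene. The word ended at the first transcribed base of the third start site (bases -6 to 1, with no base 0). The windows around the start sites 144892827 and 144893077 held 0 copies of TGTTTAC. The printed window also held 3 overlapping copies of TTTGTTT between bases -133 and -119 and a run of 19 T. TGTTTAC occurred in 3.65% of the 32851 promoter windows of 300 bases in the RefSeq table, and TTTGTTT in 9.82%. TGTTTAC and TTTGTTT occurred together in 0.916% of the windows, and a run of at least 15 T in 1.00%. Of the 65 windows that lay wholly inside a Foxp4 peak anywhere in the list, 16 held TGTTTAC (24.6%) and 19 held TTTGTTT (29.2%), and 2 of these 65 are overlapping windows of Dhrs3. The printed Dhrs3 window contained 45.3% G and C and 9 CpG, against medians of 52.7% and 7 over all windows.

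Rxrb, a partner receptor of the retinoic acid receptors, had the same 7 letters GTAAACA at bases -59 to -53 of a promoter made up of 82% G and C. Prcc, whose protein is linked to pre-mRNA splicing and which is no retinoid gene, had no TGTTTAC in its window but 3 overlapping copies of TTTGTTT on the opposite strand, at bases -235 to -221. The authors' score of the peak was 28 at the Dhrs3 start sites, 213 at Rxrb and 558 at Prcc. Promoter windows were found for 6 of the 9 genes, 12 windows in all. TGTTTAC was in 1 of the 12 and TTTGTTT in 2, all at Dhrs3, against 3.65% and 9.82% of all windows. These 12 include 4 windows of Stra6 and 3 of Dhrs3, some of them overlapping, so a share of windows is not a share of genes. The half-site AGGTCA, which retinoic acid receptors bind in pairs, was in 0 of the 12 windows, against 16.3% of all windows. The related AGTTCA was in 1, at Stra6, against 14.0% of all windows. TGTTCT, a glucocorticoid half-site, was in 3, at Dhrs3 and Stra6, against 19.0% of all windows. The word TTGTTG was in 2, at Cyp26b1 and Stra6, against 12.1% of all windows. Such matches describe the letters of these windows and do not locate bound sites, and sequence outside them was not used here.

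In genomic order, the 6 peaks nearest to Dhrs3 spanned 117.6 kb between the first and last midpoint, with 1 upstream of the gene, 1 at its start sites and 4 beyond its 3' end. The upstream peak (chromosome 4, 144875380 to 144876302), 17.0 kb before a start site, had the highest score of the 6, 174, above 89.6% of all peaks. It was also the widest, with 923 bp, wider than 98.3% of all peaks. The start-site peak scored 28, so it is lost when scores under 30 are left out. That score was above 11.0% of all peaks, although the peak was wider, with 742 bp, than 95.4% of them. High rank in width and high rank in score therefore went together at the upstream site and not at the start site.

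Past the 3' end, the first peak (144929755 to 144930138) lay 1.74 kb beyond the gene body and scored 49. The next (144951913 to 144952206) scored 47, lay 23.9 kb beyond the body inside the long non-coding RNA gene Gm42344, and was the 1 of the 6 annotated on a repeat, an Lx8 element of the L1 family. The fifth peak (144960628 to 144960918), 32.6 kb beyond, scored 80, above 61.8% of all peaks. The last (144993288 to 144993579) scored 60 and lay 65.2 kb beyond Dhrs3, in intron 67 of 69 of Vps13d, a gene of a lipid transfer protein. In the RefSeq table, which includes predicted transcripts, the body of Vps13d spans all of Dhrs3 and the midpoints of all 6 peaks, while the authors' annotation calls 4 of the 6 intergenic. The last 3 peaks were narrow, between 291 and 294 bp, wider than at most 3.65% of all peaks. Of the 6 scores, 2 were above the median of the list, and the median of the 6 was 54.5, against 65 for all peaks.

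**Figure D1:**
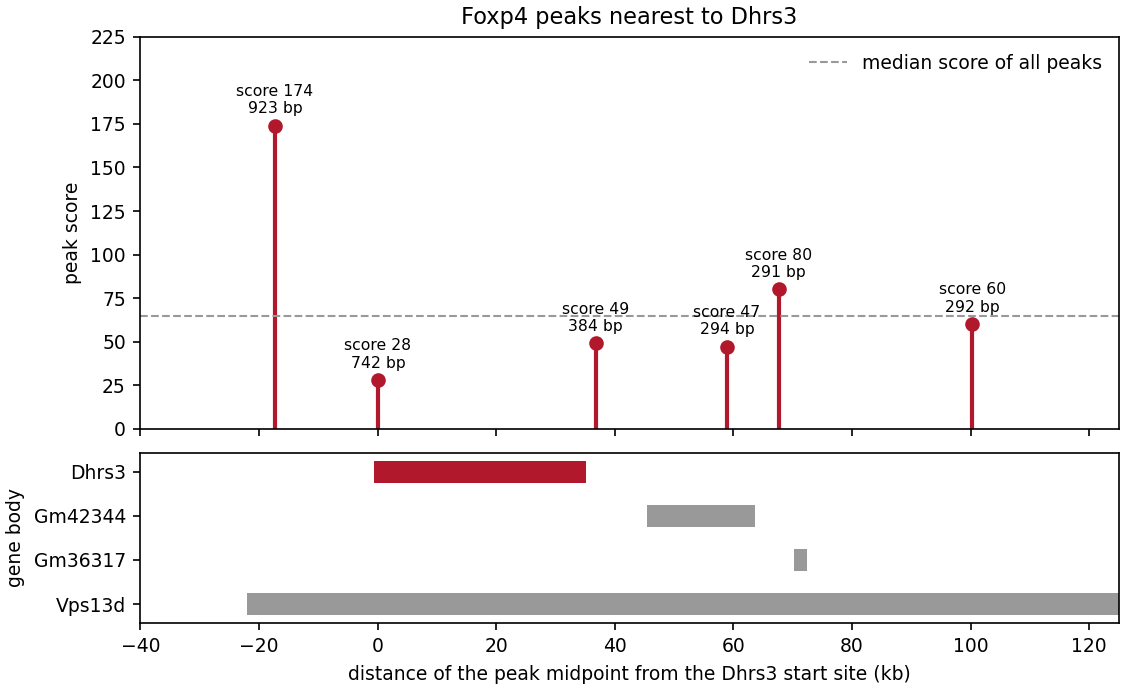
Score of each of the 6 Foxp4 peaks nearest to Dhrs3 (y axis, no unit) by the distance of its midpoint from the third curated start site in kb (x axis), with widths in bp and gene bodies from RefSeq below; Vps13d continues past the right edge. The peak upstream of the gene scores 174, the peak at the start site 28, and 4 peaks follow beyond the 3' end with scores of 47 to 80.

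The 6 peaks lay close together. Gaps between neighbouring midpoints inside it ran from 8.71 to 36.8 kb, against a median gap of 292.8 kb between neighbouring peaks over all chromosomes. The next peak on the lower side was 1463 kb away and the next on the upper side 287.9 kb, close to that median. In the whole list, 6 stretches held at least 6 peaks within a span as short as 117.6 kb, 45 peaks in all (1.36%). The other 5 stretches had 2 or more nearest genes each, for example Mir21a with Vmp1 and Cxcl1 with Cxcl15. By the authors' annotation, all 6 peaks of the Dhrs3 stretch were assigned to Dhrs3. RefSeq also places the non-coding genes Gm42344 (144938570 to 144956819) and Gm36317 (144963353 to 144965593) in this stretch. Each of the 4 peaks past the 3' end is closer to both ends of Gm42344 or of Gm36317 than to the Dhrs3 start site. The assignment to a single gene thus depends on the gene models used.

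Genes with as many nearest peaks were few. Of 21887 protein-coding genes, 0.032% (7 genes) were nearest to 6 peaks or more and 4 to exactly 6. These counts follow the authors' assignment of peaks to genes. With the RefSeq genes Gm42344 and Gm36317 as candidates, fewer peaks would be nearest to Dhrs3, and the counts were not redone that way. The genes most like Dhrs3 by this count were Foxp1, a forkhead gene of the same family as Foxp4, with a highest score of 241, Irf2bp2, a transcriptional corepressor gene, with 83, and Col3a1, a fibrillar collagen gene, with 1519. Their median scores were 71, 39.5 and 81.5, against 54.5 at Dhrs3. Their peaks were spread over 621 kb, 173 kb and 327 kb, against 118 kb at Dhrs3. Dhrs3 had 1 peak within 1 kb of its start site and the other genes 0 each, while 1.46% of all protein-coding genes had one. The likeness rests on 1 library and on the number of nearest peaks, which also grows with the distance to neighbouring start sites.

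**Figure D2:**
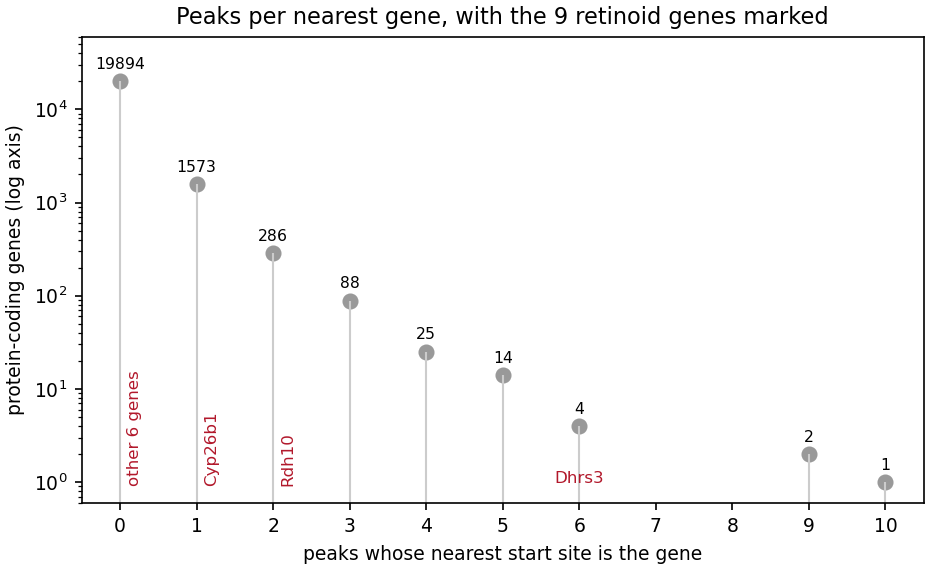
Number of protein-coding genes (y axis, log scale) by how many Foxp4 peaks have the gene's start site as their nearest (x axis), with the retinoid genes named in red. By the authors' annotation, Dhrs3 is 1 of 4 genes with 6 peaks, Rdh10 has 2, Cyp26b1 has 1 and the other 6 have 0.

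Among all 9 genes, 3 were the nearest gene of a peak, Dhrs3 with 6, Rdh10 with 2 and Cyp26b1 with 1, where 9.11% of protein-coding genes were nearest to at least 1 and 1.92% to at least 2. Within 100 kb of the gene body, 7 of the 9 had a peak, against 27.6% of protein-coding genes. Since peaks chose the list, nothing is read from these shares. The window held 6 peaks at Dhrs3 (0.178% of protein-coding genes had as many), 4 at Stra6 (0.854% had 4 or more), 3 at Crabp2 (2.63% had 3 or more), 2 at Rdh10 (8.22% had 2 or more) and 1 each at Aldh1a1, Aldh1a3 and Cyp26b1. No peak lay in the windows of Aldh1a2 and Crabp1. With a window of 20 kb, 3 of the 9 genes had a peak, Stra6, Dhrs3 and Aldh1a1, against 11.1% of protein-coding genes. With peaks of at least the median score in the 100 kb window, 4 of the 9 had one, against 16.5%.

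Stra6, the cell-surface receptor that takes up retinol from its plasma carrier, had 4 peaks in its window and was the nearest gene of none. The closest (chromosome 9, 58159175 to 58159524) scored 68, lay 5.35 kb beyond the gene body and sat 128 bp before the start of Islr, a gene of a secreted leucine-rich repeat protein that marks mesenchymal stromal cells. It was 24.7 kb from the closest curated start site of Stra6. The other 3 were nearest to Cyp11a1 (score 68), Mir6385 (72) and Stoml1 (106), the last only just inside the window at 99.96 kb. The Cyp11a1 peak was in the window only because the RefSeq body starts at 58063793, before the first curated start site at 58129088. It lay 90.4 kb from that body and at -155.7 kb from the closest curated start site of Stra6. All 4 scores were above the list's median, and 11 other annotated genes lay within 100 kb of Stra6.

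Rdh10, the enzyme that oxidises retinol to retinal and whose activity is coupled to that of Dhrs3, had 2 peaks, both downstream. One (chromosome 1, 16179946 to 16180581) scored 52 and lay 74.4 kb from the start site, 47.7 kb past the gene body. It was wider, with 636 bp, than 91.1% of all peaks. The other (16228251 to 16228698) scored 132, above 83.4% of all peaks, and lay 122.6 kb from the start site, at the annotated transcription end of Stau2, a gene of an RNA-binding protein. Neither gene of the retinol and retinal pair thus had its strongest nearest peak at the start site, and at Rdh10 no peak lay closer than 47.7 kb to the body.

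None of the peaks around the 3 enzymes that make retinoic acid from retinal was assigned to them. Most protein-coding genes share this, since 9.11% were nearest to at least 1 peak and 27.6% had a peak within 100 kb. Aldh1a1 contained 1 peak (chromosome 19, 20527770 to 20528264) with a score of 40, in intron 2 of 15. It lay 35.4 kb from the closest curated start site of Aldh1a1, and the authors' annotation assigned it to the non-coding gene C730002L08Rik, 24.3 kb away. The next peak lay 1021 kb from the gene body. Aldh1a3 had 1 peak at 20.9 kb (chromosome 7, 66369840 to 66370128) with a score of 20, in intron 2 of 33 of the kinase gene Lrrk1 and assigned to Mir7057. Aldh1a2 had none in the window. Its closest peak lay 142.1 kb away and scored 84, nearest to Polr2m.

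Cyp26b1, which hydroxylates retinoic acid for removal, was nearest to 1 peak (chromosome 6, 84656622 to 84656953), 62.9 kb upstream of its start site and inside intron 20 of 21 of the exocyst gene Exoc6b. With a score of 16, above 1.54% of all peaks, it was among the lowest of the list. The carriers of retinoic acid had no peak assigned to them, like most protein-coding genes, of which 9.11% were nearest to at least 1 peak. Crabp1, a cytosolic binding protein linked to retinoic acid turnover, lay 1500 kb from the closest peak. Crabp2, which delivers retinoic acid to the nuclear receptors, had 3 peaks in its window, all on the side of lower coordinates. The strongest (chromosome 3, 87885339 to 87886110) was the Prcc promoter peak with a score of 558, rank 35 of 3317, at 63.0 kb. The other 2 were assigned to Hdgf, a growth factor gene, and scored 19 and 15 at 43.2 and 38.0 kb. The Crabp2 window held 13 other annotated genes.

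**Figure D3:**
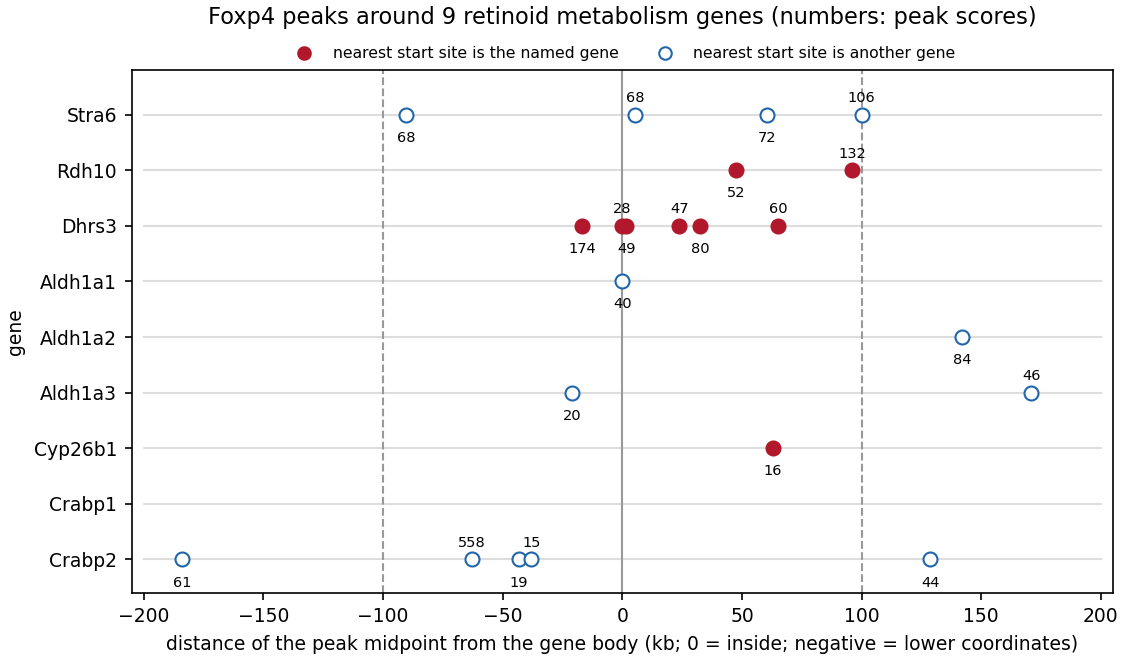
Foxp4 peaks within 200 kb of the body of each of the 9 genes (rows), by the distance of the midpoint from the body in kb (x axis); numbers are scores, filled points are assigned to the named gene, open points to another gene, and dashed lines mark 100 kb. Filled points appear at Rdh10, Dhrs3 and Cyp26b1, and the Crabp1 row is empty.

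At the edge of the 100 kb window, the peaks just inside were those at 99.96 kb from Stra6 (score 106) and 95.9 kb from Rdh10 (132). Just outside lay a peak nearest to Iqgap3 at 128.6 kb from Crabp2 (44), the one at 142.1 kb from Aldh1a2 (84) and one nearest to Asb7 at 170.8 kb from Aldh1a3 (46).

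The 9 peaks assigned to retinoid genes had scores from 16 to 174 with a median of 52, against 65 for all peaks, and 3 of them were above that median. Their widths ran from 291 to 923 bp with a median of 384, against 393. By the authors' annotation 5 of the 9 were intergenic, 2 in introns, 1 at a promoter and 1 at a transcription end, where the list as a whole was 50.5% intergenic, 38.3% intronic, 8.38% promoter and 0.995% transcription end. The intronic peaks lay in other genes, Vps13d and Exoc6b, and the transcription-end peak was annotated to Stau2, just outside its RefSeq body. Distances above 50 kb from the start site were found for 6 of the 9, against 37.1% of all peaks. Repeats were annotated at 1 of the 9 and at 23.3% of all peaks, and simple repeats at 0 of the 9 and 8.59%. The other 9 peaks, in the windows but assigned elsewhere, had scores from 15 to 558 with a median of 68.

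**Figure D4:**
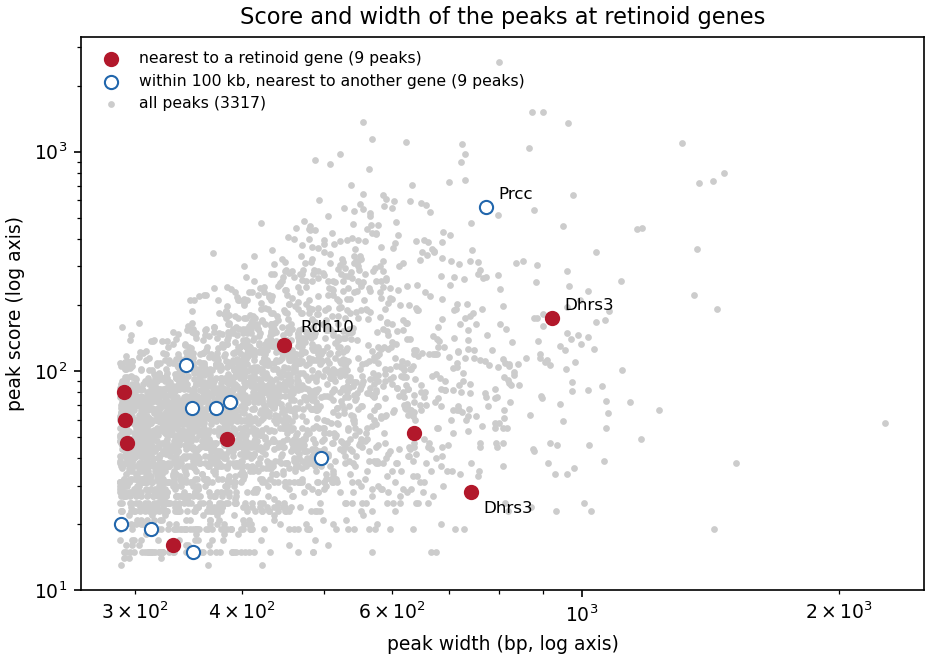
Score (y axis, log scale) and width in bp (x axis, log scale) of the peaks assigned to a retinoid gene (filled red), of those within 100 kb but assigned to another gene (open blue) and of all 3317 peaks (grey). The 2 labelled Dhrs3 peaks are among the widest peaks but differ in score, 174 against 28.

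Further genes of the pathway were counted from a list of 54 symbols set up by role, of which 53 were matched. Of these, 7 were nearest to a peak (13.2%, against 9.11% of protein-coding genes), with 9 peaks, and 20 had one within 100 kb (37.7%, against 27.6%). Of the 6 nuclear receptor genes, 4 were nearest to 1 peak each. Rxrb had the highest of these scores, 213, above 92.4% of all peaks, at 37 bp before its start site (chromosome 17, 34032048 to 34032578). Rara (67), Rarb (65) and Rxra (25) had theirs in introns, at distances of 5.79, 124.3 and 48.1 kb from the nearest start site of the gene, the first of these upstream. Rarg and Rxrg were nearest to none.

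The share of protein-coding genes nearest to at least 1 peak was 9.11%. Of 19 other enzymes that interconvert retinol, retinal and retinoic acid or resemble such enzymes, 1 was nearest to a peak (5.26%). This was Dhrs7, a short-chain dehydrogenase whose human protein reduces retinal and steroids in vitro, with a score of 98 at 193 bp before its start site (chromosome 12, 72664808 to 72665234) and of 129 at 29.3 kb upstream. Among 3 further cytochrome P450 genes, Cyp1b1, which can oxidise retinol and retinal, had 2 peaks. The stronger (chromosome 17, 79712725 to 79713263) scored 406, above 97.9% of all peaks, and lay in an intron 2.05 kb from the start site, and the other scored 162 at 10.6 kb. Both Cyp26a1 and Cyp26c1, the close relatives of Cyp26b1, were nearest to none.

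Of 10 genes known to respond to retinoic acid or to mediate its receptors' action, Tgm2, a transglutaminase gene, was nearest to 1 peak, with a score of 133 at 21.8 kb upstream. Of all protein-coding genes, 9.11% were nearest to at least 1 peak. The 9 matched genes of other carriers and uptake proteins and the 6 genes of retinyl ester storage and carotenoid cleavage were nearest to none. The highest score in the windows of these 15 was 251, at 16.5 kb from Rbp7, a retinol-binding protein gene of fat and vessels, on a (TTG)n repeat and assigned to Ube4b.

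**Figure D5:**
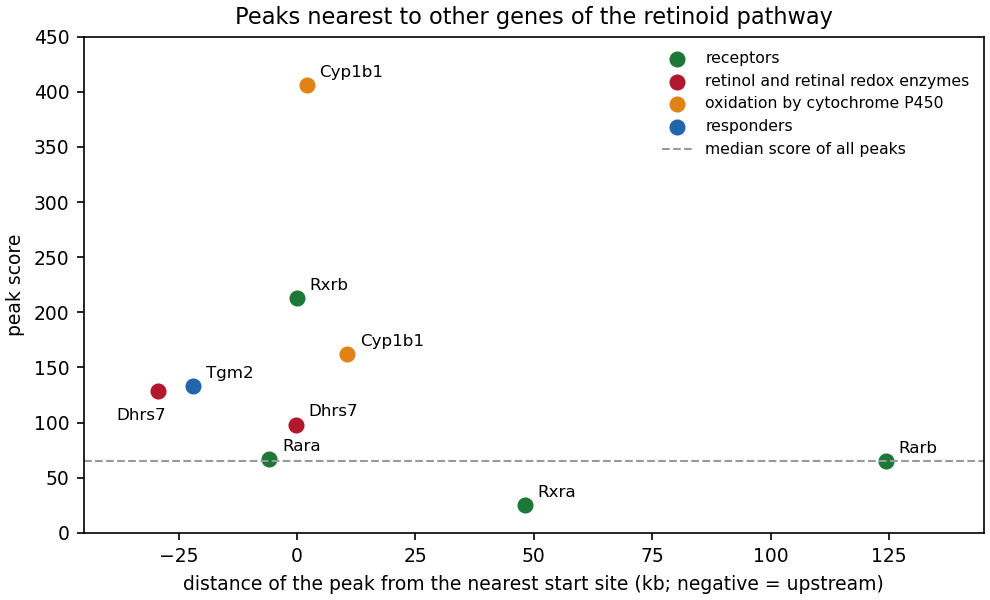
Score (y axis, no unit) of the 9 peaks assigned to 7 further retinoid pathway genes by distance from the nearest start site in kb (x axis, negative upstream), coloured by role. Cyp1b1 reaches 406 and Rxrb 213 close to their start sites, while Rarb and Rxra lie at 124.3 and 48.1 kb.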

How the data were processed

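Per the labels' protocols, DNA bound by Foxp4 was isolated from sonicated nuclei with a Foxp4 antibody and sequenced. Per the file headers, the authors annotated a narrowPeak file on mm10 with HOMER's annotatePeaks.pl. The submitters' processing notes name Bowtie2, Picard, SAMtools, MACS2 and deepTools 3.3.0 without roles. The use of the input in peak calling, the caller's settings and the handling of multiply aligned reads are not stated there; each could change which peaks are listed. The deposited values used were each peak's position, score and distance to the nearest start site in bp. All 3317 peaks were kept and 1 line without a peak was left out.

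Gene bodies came from a RefSeq table (GRCm38.p6, the assembly of mm10; 21887 protein-coding genes), which includes predicted transcripts that can lengthen a body. Peaks were joined to genes by gene number or by the distance of the midpoint from the gene body. The counts by distance were checked on simulated peaks, and the join by gene number was not. Words were counted on both strands of the 32851 RefSeq promoter windows, and the planned word counts in whole peaks were not run. The planned AGGTCA pairs were counted as single half-sites. TGTTTA lies within TGTTTAC, which TGTTTNC includes. The genes, the pathway list and the rules were chosen with earlier results of these data known. All 9 genes are named with every peak, as are the pathway genes nearest to a peak and the genes with as many nearest peaks as Dhrs3. No test was made, since 1 library allows none. Alternatives covered score limits, distance limits, window sizes, overlap in place of midpoints and joined peaks. Python 3.11.15, pandas 2.3.3 and numpy 2.4.6 were used.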

Additional observations from a re-analysis of the deposited data

How the results depend on the processing

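The counts depended on the score limit and on the distance allowed. With scores of at least the median, 3 peaks were nearest to the 9 genes, in place of 9. Of these 2 were nearest to Dhrs3, in place of 6, and the start-site peak of Dhrs3 was not among them. With that limit 4 of the 9 genes had a peak within 100 kb, in place of 7, with 8 peaks in place of 18, and 16.5% of protein-coding genes had one. With scores of at least 30, 5 peaks were nearest to Dhrs3, without the start-site peak, and Cyp26b1 had none. At that limit 5 of the 9 genes, in place of 7, had a peak within 100 kb, against 24.6% of protein-coding genes. With nearest peaks limited to 10 kb from the start site, 1 gene, Dhrs3, had 1 peak, against 3.27% of protein-coding genes. A window of 50 kb held 11 peaks at 6 of the 9 genes, and a window of 20 kb held 5 peaks at 3 of them, Stra6, Dhrs3 and Aldh1a1, against 18.0% and 11.1% of protein-coding genes. A window of 200 kb held 22 peaks at 8 genes, where 41.7% of protein-coding genes had one. Counting any overlap and joining peaks within 1 kb left the counts at 18 and 6. Each lower count follows from the alternative's own construction, which keeps fewer peaks or less sequence. No paired analysis was possible because each group has 1 sample. Without depth, pileup or a second library, the stability of low scores such as 28 at the Dhrs3 start sites cannot be judged here.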
